A study of Homo sapiens with 2 samples.

Results

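The stitched domains of LDB1 are stretches of the genome in which 5 or more LDB1 peaks of NB4 cells follow each other closely. They were chosen by measured peak positions: peaks on one chromosome were joined when the gap between them, the next start minus the previous end minus 1, was under 12.5 kb, and joined groups of at least 5 peaks were kept. The rule joined the 11046 peaks into 6881 groups, and 268 of these were domains. The domains held 1862 peaks, 16.9% of all peaks (95% Wilson interval 16.2 to 17.6%), and the other 9184 peaks lay alone or in groups of 2 to 4.

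To locate LDB1 on chromatin, the study profiled NB4, a human cell line from acute promyelocytic leukemia, by CUT&Tag, in which an antibody guides a transposase that cuts the DNA around the bound protein. The series has 1 library made with an LDB1 antibody, whose label gives the treatment as LDB1 overexpression, and 1 made with IgG, labelled untreated. The paper's methods do not mention overexpression for CUT&Tag. Antibody and treatment cannot be told apart, and with 1 library per group no test between groups could be made. The analysed values were the position and length of each LDB1 peak on hg38, with no height, so the read depth behind a peak is unknown and each 95% interval covers counting error in this library alone.

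LDB1 has no DNA-binding domain of its own. It dimerizes and, through LMO2, joins GATA factors and the E-box binding pair of TAL1 and an E protein, and LDB1 dimers on distant elements can bring enhancers to promoters. The DNA letters that such a complex contacts are an E-box end, CTG, followed 7 or 8 bases later by a GATA motif. Dense groups of binding sites of this kind are known from the loci of red cell genes, where they form locus control regions and clustered enhancers.

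The composite letters are shown first, since the results turn on how often domain peaks hold them. A composite was CTG, then 7 or 8 bases, then a GATA motif, on either strand. A GATA motif was AGATAA, or the same letters with T in first place, G in last place, or both. The first set comes from the first 6 domains by number of peaks, with ties ordered by summed peak length, apart from the REG4 domain, which held none. Domains further down, such as that of USP20 and FNBP1, held composites that are not shown. Each stretch is read from hg38 with 15 bases on either side, and capitals mark CTG and the GATA motif. Composites that overlap an exon are not shown. The search covered whole peaks, whereas the main shares below count only the 200 bp at the peak midpoint. Most composites shown in this set and the next lie outside those 200 bp. The KCNH2 and CPEB4 domains had no composite within them.
GSE1, chr16:85303251-85303296, minus strand: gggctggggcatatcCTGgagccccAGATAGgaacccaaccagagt
GSE1, chr16:85403176-85403221, minus strand: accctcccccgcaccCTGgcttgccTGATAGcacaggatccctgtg
KCNH2 and NOS3, chr7:150994723-150994769, plus strand: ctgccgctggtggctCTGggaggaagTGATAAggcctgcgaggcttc
Near CPEB4, chr5:173839452-173839498, plus strand: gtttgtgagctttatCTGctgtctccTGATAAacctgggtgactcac
PLEKHA4 to NUCB1, chr19:48854325-48854370, plus strand: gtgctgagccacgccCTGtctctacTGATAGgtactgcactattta
PLEKHA4 to NUCB1, chr19:48867270-48867315, minus strand: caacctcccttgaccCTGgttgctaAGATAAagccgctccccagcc
SLC4A1, chr17:44245751-44245797, minus strand: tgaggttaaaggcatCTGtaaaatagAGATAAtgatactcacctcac
SLC4A1, chr17:44246128-44246173, plus strand: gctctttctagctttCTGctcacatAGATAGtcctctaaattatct
SLC4A1, chr17:44246153-44246198, minus strand: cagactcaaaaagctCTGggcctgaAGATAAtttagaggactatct
SLC4A1, chr17:44266693-44266739, plus strand: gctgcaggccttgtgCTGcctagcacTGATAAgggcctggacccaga
SLC4A1, chr17:44281715-44281760, minus strand: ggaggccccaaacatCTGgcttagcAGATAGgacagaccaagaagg

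The next set comes from domains at genes of LDB1 partners and related factors, chosen after their values were seen. CBFA2T3 (ETO2) and SSBP3 bind the LDB1 complex, and ZFPM1 (FOG1) is a cofactor of GATA1. GFI1B is a transcriptional repressor present in red cell and platelet precursors. Capitals mark the same letters. In the ZFPM1, GATA1 and GFI1B domains no composite fell in the 200 bp at a peak midpoint.
CBFA2T3, chr16:89004291-89004337, plus strand: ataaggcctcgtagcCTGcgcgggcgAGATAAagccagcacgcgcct
CBFA2T3, chr16:89004367-89004412, plus strand: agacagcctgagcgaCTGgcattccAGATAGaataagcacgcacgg
ZFPM1, chr16:88455977-88456023, minus strand: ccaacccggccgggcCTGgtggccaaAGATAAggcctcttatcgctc
ZFPM1, chr16:88473950-88473996, minus strand: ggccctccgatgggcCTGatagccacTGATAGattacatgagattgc
ZFPM1, chr16:88491818-88491864, minus strand: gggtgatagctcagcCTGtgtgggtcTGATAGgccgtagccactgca
GATA1 and HDAC6, chrX:48785960-48786005, minus strand: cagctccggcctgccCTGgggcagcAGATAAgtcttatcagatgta
GATA1 and HDAC6, chrX:48794588-48794633, plus strand: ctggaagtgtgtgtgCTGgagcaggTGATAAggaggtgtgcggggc
GATA1 and HDAC6, chrX:48800568-48800613, plus strand: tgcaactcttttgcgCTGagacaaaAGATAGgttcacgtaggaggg
GATA1 and HDAC6, chrX:48800979-48801025, minus strand: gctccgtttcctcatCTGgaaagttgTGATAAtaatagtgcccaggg
SSBP3, chr1:54375763-54375809, minus strand: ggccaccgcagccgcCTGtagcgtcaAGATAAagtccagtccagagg
GFI1B, chr9:133003079-133003124, minus strand: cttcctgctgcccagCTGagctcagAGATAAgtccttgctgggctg
GFI1B, chr9:133004232-133004278, minus strand: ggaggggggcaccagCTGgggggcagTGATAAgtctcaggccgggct
GFI1B, chr9:133005143-133005188, plus strand: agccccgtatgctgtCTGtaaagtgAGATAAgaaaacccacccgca

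In the SLC4A1 domain a pair of composites on opposite strands lay 22 and 47 bp from the midpoint of a peak of 2011 bp, in intergenic sequence 15868 bp from the nearest annotated start site. In the GATA1 domain, 1 composite lay 126 bp from the midpoint of a peak of 1936 bp near a GATA1 start site, and the peak of 2204 bp at the other end of the domain held 2. All 3 composites of the GFI1B domain fell in its longest peak, 3606 bp of intergenic sequence, at 529, 624 and 1534 bp from the midpoint. The ZFPM1 peak of 4088 bp had central bases that occur 2 times in hg38.

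A contrasting sequence is the centre of the longest peak of the KCNH2 and NOS3 domain, a peak of 2726 bp lying 48 bp from an annotated start site. Its central 200 bp were 69.5% G or C and held no GATA motif, and the whole peak held 3 GATA motifs and no composite. The central 100 bases carry no capitals.
KCNH2 and NOS3, chr7:151008776-151008875, plus strand: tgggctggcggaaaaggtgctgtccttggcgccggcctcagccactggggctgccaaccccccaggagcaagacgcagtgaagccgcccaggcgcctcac

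Results showed that most domains were small and a few were large. The number of peaks per domain, which the rule set at 5 or more, had a median of 6 and reached 27, and 113 domains had exactly 5. The 36 domains with 10 or more peaks made up 13.4% of the domains (9.86 to 18.0%). From the first to the last base a domain spanned a median of 21619.5 bp, between 5399 and 135636 bp, and its peaks covered a median of 19.3% of that span. Summed peak length per domain had a median of 3903 bp and ran from 1407 to 23074 bp. The 1594 gaps within domains had a median of 1993 bp, and 546 of them (34.3%) were under 1000 bp.

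**Figure D1:**
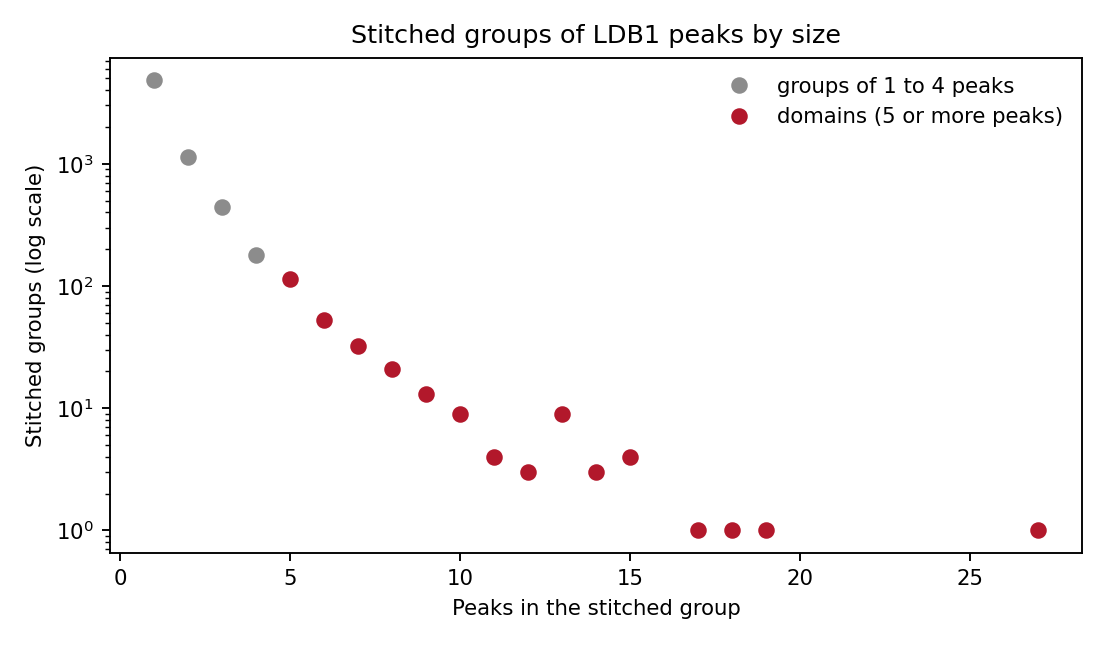
Number of stitched groups (vertical axis, log scale) by the number of LDB1 peaks they hold (horizontal axis), with groups of 1 to 4 peaks in grey and domains in red. Counts fell from 4846 single peaks to 113 domains of 5 peaks, and 1 domain stood apart at 27.

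The cut between domains and smaller groups lay in a continuous range. The longest gap inside a domain was 12450 bp, in the 13-peak domain over NT5DC4 on chromosome 2. The shortest gap that ended a domain was 12539 bp, between the 9 peaks of the KSR1 domain on chromosome 17 and a group of 4. A gap of 12508 bp on chromosome 7 kept a single peak from a group of 4.

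Among the domains with the most peaks, the first lay over GSE1, which encodes a subunit of a corepressor complex. Its 27 peaks summed to 23074 bp in a span of 135636 bp, 4 had a GATA motif in the central 200 bp, 2 of those windows held a composite, and 4 peaks were near a transcription start site (TSS), meaning a midpoint within 3000 bp. The second held 19 peaks over KCNH2, a potassium channel gene, and NOS3, the endothelial nitric oxide synthase gene. Of its peaks 15 were near a TSS, and 1 window had a GATA motif. The third, 18 peaks summing to 10914 bp, overlapped no protein-coding gene and ended 2524 bp from the TSS of CPEB4, which encodes a regulator of mRNA translation. It had 1 peak near a TSS and 5 windows with a GATA motif. The fourth had 17 peaks over REG4, of which 7 windows had a GATA motif.

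Of the domains with 15 peaks, that over SLC4A1, the gene of the anion exchanger of the red cell membrane, summed to 14465 bp, and 5 windows had a GATA motif and 2 a composite. A domain of 15 peaks and 14629 bp ran over PLEKHA4, PPP1R15A, TULP2 and NUCB1, with 12 peaks near a TSS. The domain of USP20 and FNBP1 had 15 peaks, with composites in 2 windows and in 6 whole peaks. The last domain with 15 peaks, at FAM72B and SRGAP2C, differed from these in that the central 31 bases of 13 of its peaks occur more than once in hg38, and the peak list does not show from which copy the reads came. Domains of 14 peaks lay over SLC25A37, the mitochondrial iron importer gene, with 9 peaks near a TSS and 4 windows with a GATA motif, and in ZMIZ1, with no peak near a TSS and 2 such windows.

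**Figure D2:**
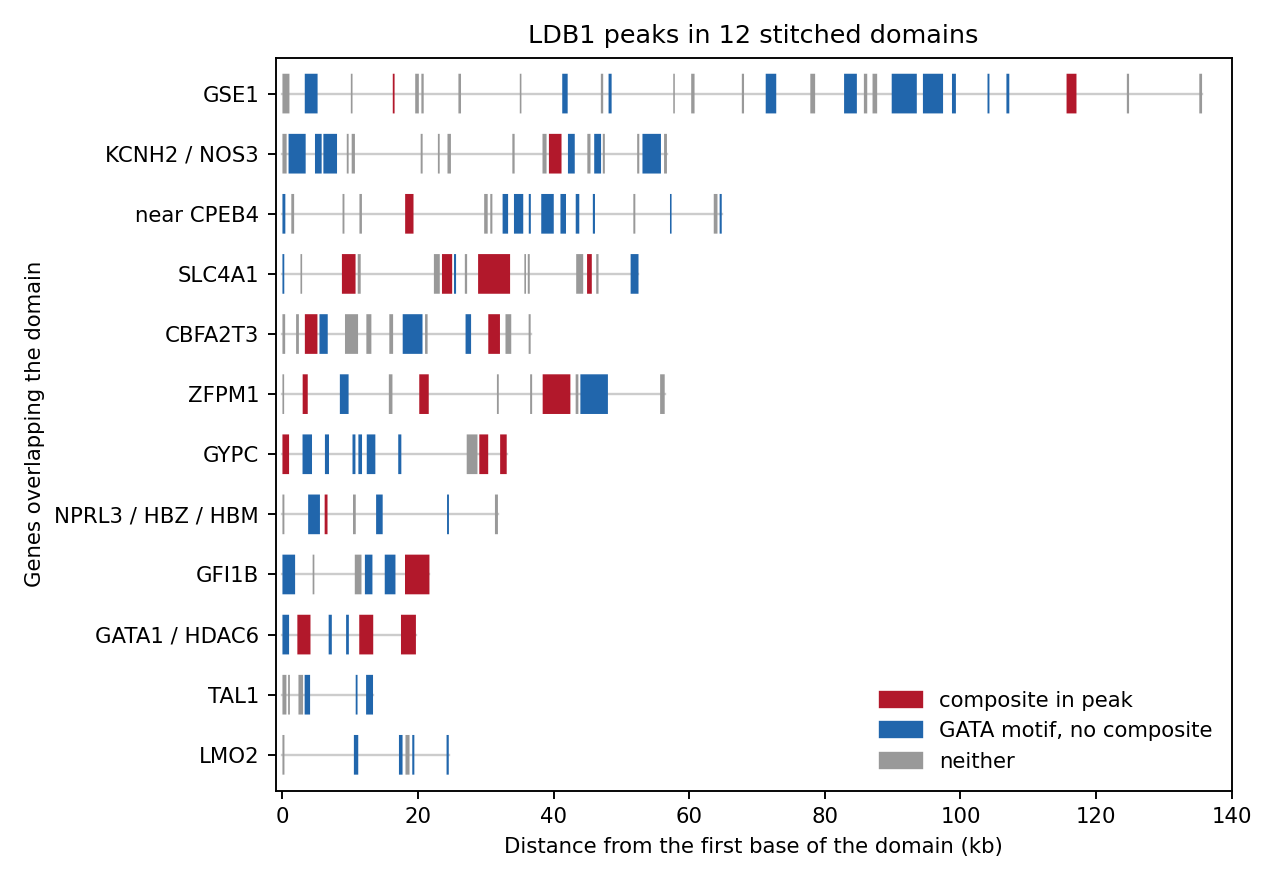
Peaks of 12 domains drawn to scale as bars along the distance from the first base of each domain (kb), with peaks that hold a composite anywhere in red, those with a GATA motif but no composite in blue, and those with neither in grey. In the GSE1 domain 2 of 27 peaks are red, and in the GATA1 domain 3 of 6.

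Several domains lay at genes of the LDB1 complex itself, and motifs are counted for them anywhere in a peak. Counted so, a GATA motif was in 61.5% of all domain peaks and 73.4% of other peaks. A composite was in 15.6 and 23.7%. The CBFA2T3 domain had 13 peaks summing to 14093 bp, and 2 peaks held a composite. The ZFPM1 domain had 11 peaks summing to 14004 bp, of which 3 held a composite. The domain over HDAC6 and GATA1, which encodes the red cell GATA factor, had 6 peaks summing to 8051 bp, 4 of them in the GATA1 body. Each of the 6 peaks held a GATA motif and 3 held a composite. The peak of 2204 bp, which held 2 composites, lay past the GATA1 body, 104 bp from an annotated start site. The 6 peaks at TAL1, which encodes the E-box binding partner, summed to 3621 bp, 3 held a GATA motif and none a composite. At LMO2, the bridging protein of the complex, 6 peaks of 296 to 643 bp summed to 2700 bp, 4 held a GATA motif and none a composite. A further domain of 7 peaks began 42454 bp from the LMO2 TSS, and 2 of its peaks held a composite. LDB1 itself had 1 peak in its gene body, and the nearest domain was 3639055 bp away. LYL1, a relative of TAL1, had 2 peaks and its nearest domain was 1520275 bp away.

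To examine which genes the domains cover, protein-coding gene bodies were intersected with the domain spans. Domains overlapped 249 of 20033 protein-coding genes, 1.24%, and this share is the background for the counts that follow. Of 18 genes of the LDB1 complex and its partners, 6 overlapped a domain (33.3%, 16.3 to 56.3%), namely LMO2, TAL1, GATA1, SSBP3, CBFA2T3 and ZFPM1. Of 36 red cell genes, 12 overlapped a domain (33.3%, 20.2 to 49.7%). Among them were the membrane and skeleton genes SLC4A1, SPTB and EPB41, the blood group genes GYPB, GYPC and RHD, the globin genes HBZ, HBE1 and HBG2, the iron importer gene SLC25A37, and HEMGN. HBE1 and HBG2 were counted through the same domain, which their annotated bodies of 237308 and 252418 bp reach. At least 1 peak lay in the body of 30 of the 36 red cell genes and 12 of the 18 complex genes, against 3310 of all 20033 protein-coding genes (16.5%).

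The lists for other cells gave lower shares, with wide intervals, and the differences between lists were not tested. Of 20 megakaryocyte and platelet genes, 2 did (10%, 2.79 to 30.1%): ITGB3, the platelet fibrinogen receptor gene, and NFE2, a transcription factor gene of platelet and red cell precursors. The NFE2 domain had 8 peaks summing to 9279 bp, 2 of which held a composite anywhere in the peak. The ITGB3 domain had 5 peaks summing to 2090 bp with none. Of 24 stem cell and leukemia transcription factor genes, 2 did, namely CEBPE, a granulocyte maturation factor gene, in a domain of 10 peaks summing to 8009 bp, and GFI1B, with 6 peaks summing to 9406 bp. SIGLEC8, an eosinophil and mast cell receptor gene, was the 1 overlap among 20 genes of mast cells, basophils and eosinophils. No peak lay in the SIGLEC8 body, which fell inside a gap of 11550 bp between neighbouring peaks of its domain. None of 22 neutrophil granule and maturation genes (upper limit 14.9%), 18 cytokine receptor genes (17.6%), 20 T and B lymphocyte genes (16.1%) or 20 genes of non-blood tissues (16.1%) overlapped a domain. NB4 is a promyelocytic line, and 4 of the 22 neutrophil genes had a peak in the body (18.2%), near the 16.5% of all genes. Expression was not measured here. Of 19 candidate targets selected by the study, 1 overlapped a domain, DLGAP1-AS1, with 11 peaks summing to 4297 bp, while 13 had a peak in the body. Of the genes that the study listed as bound in ChIP-Seq and changed on LDB1 knockdown, 1079 matched the annotation, and 79 of these overlapped a domain (7.32%, 5.91 to 9.03%). That list was selected for LDB1 binding and had a median gene length of 46389 bp. Of its matched genes, 651 had a peak in the body, and 11.8% of these overlapped a domain. Among all 3310 protein-coding genes with a peak in the body, 242 overlapped a domain (7.31%), and the difference was not tested.

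**Figure D3:**
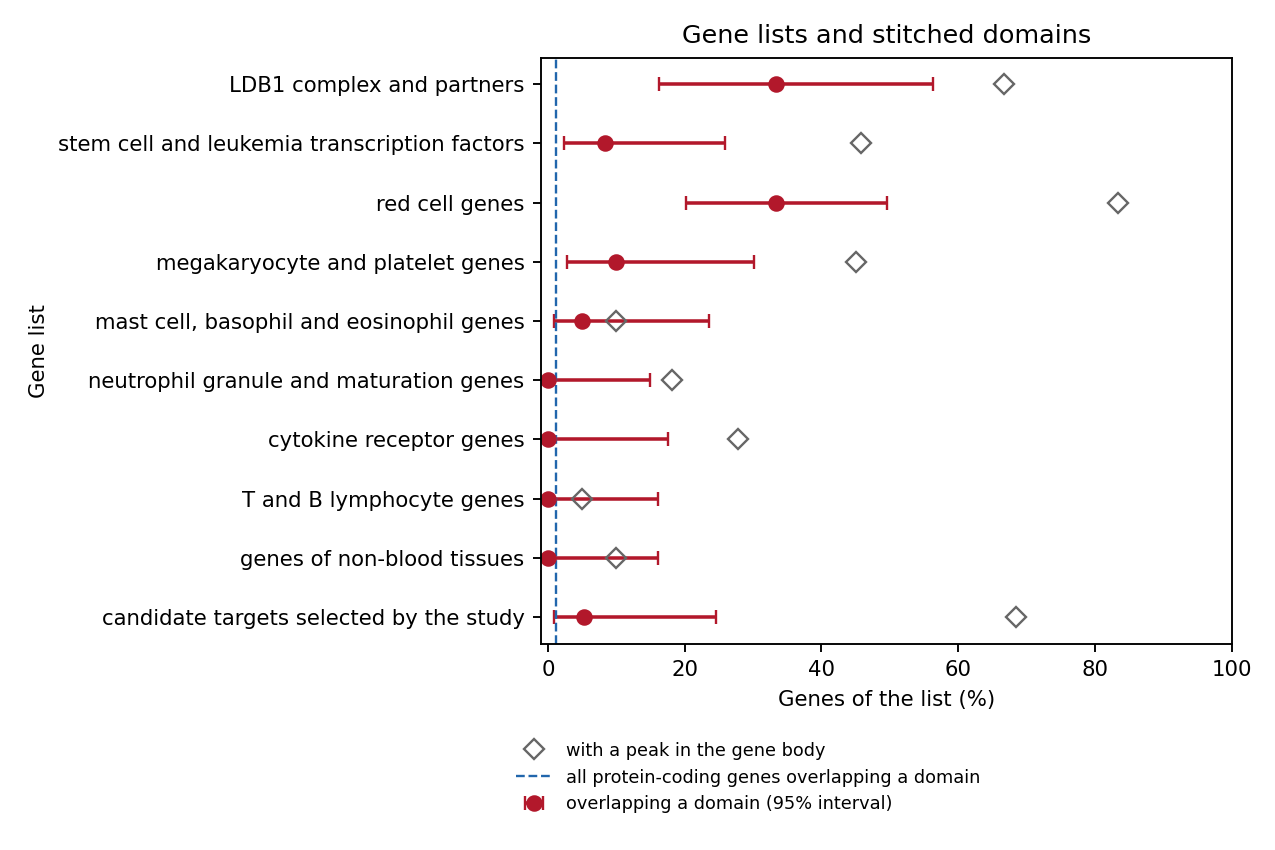
Share of genes of each list (%) whose body overlaps a domain (red points, 95% Wilson intervals) and share with a peak in the body (open diamonds), with the share of all protein-coding genes overlapping a domain as a dashed line at 1.24%. The LDB1 complex and red cell lists both stand at 33.3%.

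Gene length and repeated sequence were set beside these counts. The relation of gene length to the shares of the lists was not tested. Genes that overlapped a domain had a median length of 48581 bp against 27471 bp over all protein-coding genes. The red cell genes had a median of 22437.5 bp and the complex genes 38413 bp. Among the other lists, medians ran from 8641 bp for the neutrophil genes to 56649.5 bp for the stem cell and leukemia factor genes. GYPB and RHD belong to gene families with near-identical copies, and all 6 peaks of the RHD domain and all 5 of the GYPB domain had repeated central bases. When peaks with repeated central bases were left out before stitching, 7 red cell genes overlapped a domain (SLC4A1, EPB41, GYPC, HBG2, HBE1, SLC25A37 and HEMGN), against 202 protein-coding genes in all. The 6 complex genes stayed the same, and of the megakaryocyte and platelet genes NFE2 was left.

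The red cell domains differed in their layout. Motifs are again counted anywhere in a peak, where 61.5% of all domain peaks held a GATA motif and 15.6% a composite. The GYPC domain had 10 peaks summing to 9538 bp, of which 9 held a GATA motif and 3 a composite. In its central windows of 200 bp these counts were 5 and 0. The domain at HEMGN, which encodes hemogen, had 9 peaks, 7 with a GATA motif and 3 with a composite. In its central windows they were 4 and 1. The domain over NPRL3, HBZ and HBM at the alpha-globin cluster had 7 peaks summing to 4540 bp, with 4 peaks holding a GATA motif. A separate domain of 5 peaks summing to 7336 bp lay in NPRL3 at chr16:104684-123074, where 3 peaks held a composite; introns of NPRL3 are known to contain the distal alpha-globin enhancers. The domain counted for HBE1 and HBG2, 6 peaks at chr11:5279940-5289327, lay 9995 bp from the nearest protein-coding TSS, that of HBE1, on the side where the beta-globin locus control region is known to lie. Of these peaks 4 held a GATA motif and 3 a composite.

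Domains also contained microRNA genes. There were 17 annotated miRNA genes within domain spans, and 10 matched the RefSeq table by symbol. Their share of all annotated miRNA genes was not computed, so this count is a listing only. MIR144, MIR451A and MIR4732, the first and second known as red cell miRNAs, lay in a domain of 8 peaks over FAM222B, ERAL1 and FLOT2 that summed to 7284 bp, with a composite in 1 peak. MIR22 lay in a domain of 5 peaks. A peak overlapped MIR144 and MIR4732, and none overlapped MIR451A or MIR22, which lay between peaks. MIR451A had no match by symbol, so its sequence is not shown. Mature sequences from MIR22 and MIR144 are shown with the seed, bases 2 to 8, in capitals (RefSeq, GRCh38.p14).
hsa-miR-22-3p, chr17:1713914-1713935, minus strand: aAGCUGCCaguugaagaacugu
hsa-miR-144-3p, chr17:28861548-28861567, minus strand: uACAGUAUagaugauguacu
hsa-miR-144-5p, chr17:28861583-28861604, minus strand: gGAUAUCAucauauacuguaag

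To compare domain peaks with the other 9184, features that the rule did not use were examined. Domain peaks held GATA motifs and composites less often. In the central 200 bp a GATA motif was present in 641 of 1862 domain peaks, 34.4% (32.3 to 36.6%), against 49.7% (48.7 to 50.7%) of other peaks, a difference of -15.2 points (Newcombe interval -17.6 to -12.8). A composite was present in 119 domain peaks, 6.39% (5.37 to 7.59%), against 12.1% (11.4 to 12.8%), a difference of -5.71 points (-6.94 to -4.34). Since peaks of a domain share their locus, an interval with each stitched group as 1 unit was also computed, and it was -17.8 to -12.7 for GATA and -7.02 to -4.39 for the composite.

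The differences of the other motifs were smaller in size. AP-1 letters (TGAGTCA) were in 8.11% of domain peaks and 9.76% of other peaks, a difference of -1.65 points (-2.96 to -0.193). For the TAL1 E-box (CAGATG or CAGCTG) the shares were 31.9 and 34.2%, and the interval of the difference, -4.56 to 0.0912, included 0. RUNX letters (TGTGGT) stood at 16.9 and 17.4%, CEBP letters (TTGCNNAA) at 7.04 and 7.52%, KLF letters (CCACACCC or CCACGCCC) at 6.34 and 6.15%, and ETS letters (CCGGAAGT or CAGGAAGT) at 1.93 and 2.45%, each with an interval that included 0. The CTCF consensus was in 7 domain peaks (0.376%) and in 0.381% of other peaks. A match of letters is a description and not a bound site.

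**Figure D4:**
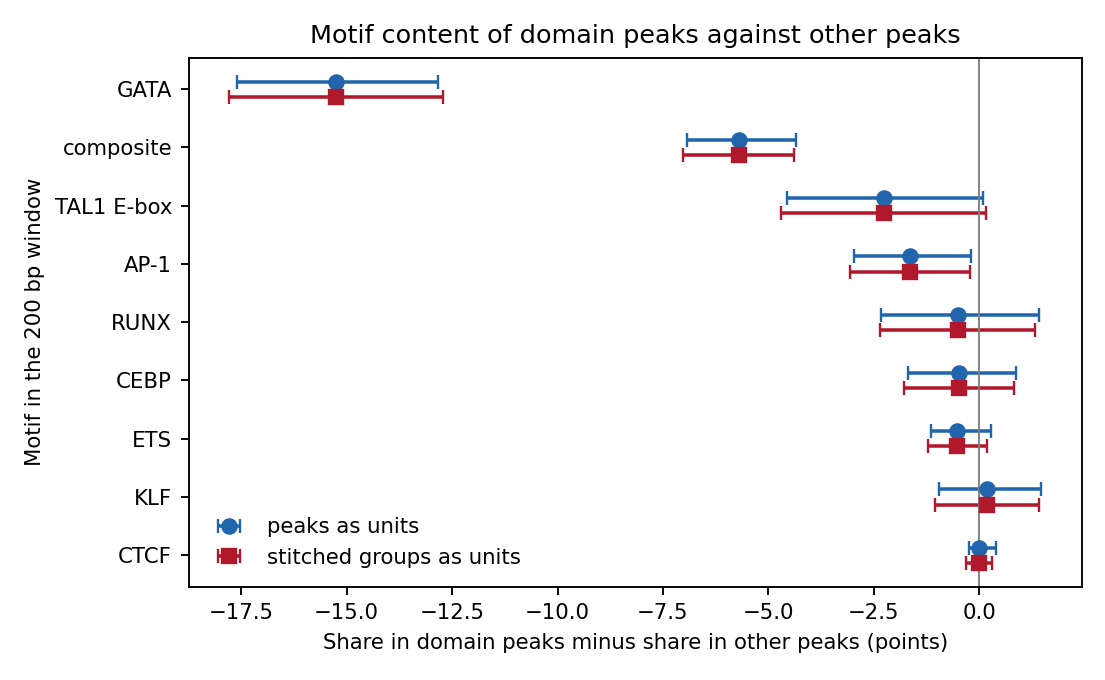
Share of domain peaks minus share of other peaks with each motif in the central 200 bp (points), with 95% Newcombe intervals over peaks (blue) and intervals with stitched groups as units (red). GATA, at -15.2 points, the composite, at -5.71, and AP-1, at -1.65, have both intervals wholly below 0.

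The shares fell with the size of the group. A GATA motif was in 55.9% of single peaks (54.5 to 57.3%), 45.3% of peaks in groups of 2, 39.9% in groups of 3 or 4, 36.0% in domains of 5 to 9 peaks and 29.8% in domains of 10 or more. The composite followed the same order, at 14.6, 9.89, 8.63, 6.75 and 5.32%. Between the domains of 5 to 9 and of 10 or more peaks the composite intervals overlapped, and the GATA intervals overlapped as well. Over whole peaks, which were longer in larger groups, GATA motifs numbered 3.16 per kb in single peaks and 1.99 per kb in domain peaks, and composites 0.573 and 0.255 per kb.

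**Figure D5:**
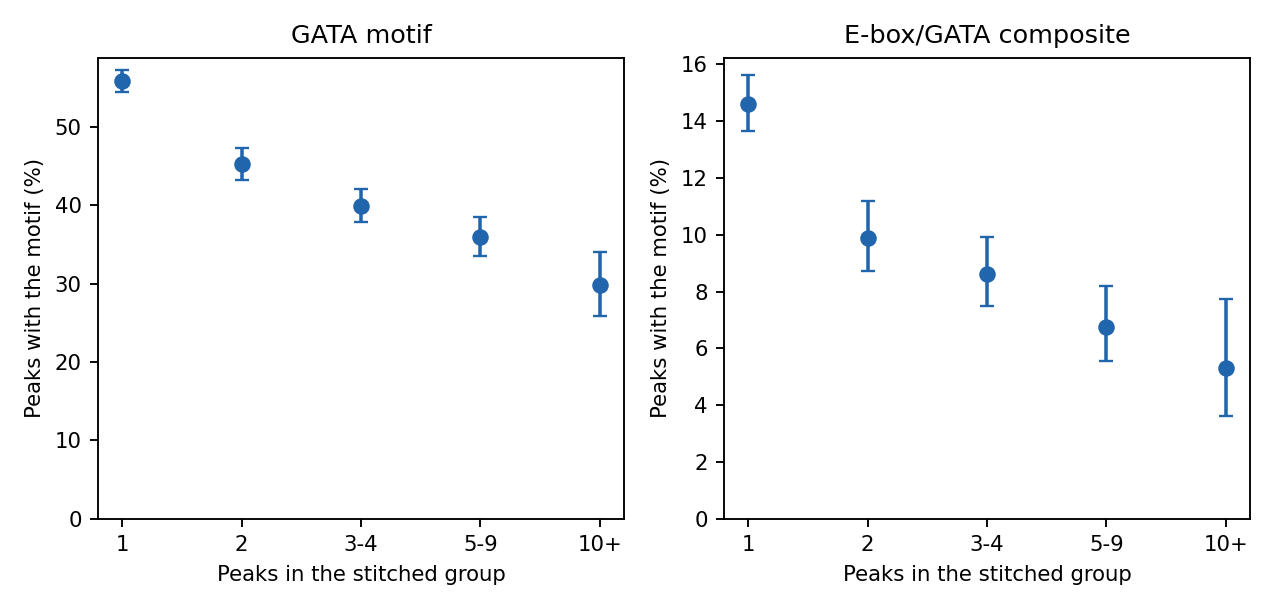
Share of peaks (%) with a GATA motif (left) and with a composite (right) in the central 200 bp, by the number of peaks in their stitched group, with 95% Wilson intervals. Both fall from single peaks, 55.9 and 14.6%, to domains of 10 or more peaks, 29.8 and 5.32%.

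The motif differences were also computed within classes of base composition, distance to a TSS, peak length and repeats. Domain peaks had a mean GC content of 53.7% in the window against 52.1%. Within peaks under 45% GC the GATA difference was -12.1 points (-19.6 to -4.72), at 45 to 55% it was -12.4 (-15.9 to -8.80), and at 55% or more it was -12.6 (-15.7 to -9.19). The composite differences in the same classes were -5.96, -6.14 and -3.83 points. Near a TSS the GATA difference was -13.6 points and elsewhere -15.9 points. Among peaks of up to 600 bp it was -17.5 points, and among longer peaks -13.0. Among peaks with unique central bases it was -16.0 points. The GATA and composite differences were below 0, intervals included, in each of these 8 classes.

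Windows 1000 bp to either side of the peaks, where they met no peak, gave the local background. The GATA share of domain peaks was 1.34 times that of their flanks (1.23 to 1.46), and the composite share was 4.75 times the flank share of 1.34% (3.30 to 6.84). For other peaks the ratios were 1.80 (1.74 to 1.86) and 9.84 (8.50 to 11.4). Thus both motifs were more frequent in domain peaks than beside them, by a smaller ratio than at other peaks. Mean GC content was 47.6% in flanks of domain peaks and 46.3% in flanks of other peaks. It was 53.7 and 52.1% in the central windows of those peaks, and the ratios were not adjusted for it.

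Within a domain the motifs were not evenly spread. The longest peak of each domain, with a median of 1272.5 bp, had a GATA motif in its central window in 43.3% of domains (37.5 to 49.3%) and a composite in 10.8% (7.64 to 15.1%). The second longest had them in 41.0 and 9.33%. The shares in the other domain peaks were 31.3 and 4.90%, and in the shortest peak of each domain 21.3 and 2.99%. A rise with peak length was also seen outside domains. There the GATA share was 47.9% in peaks of up to 600 bp and 54.0% in longer ones, and the composite share 10.4 and 16.1%. In domain peaks the same classes had GATA shares of 30.3 and 41.0% and composite shares of 4.35 and 9.69%. Peaks at the ends of domains and inner peaks had GATA shares of 34.1 and 34.5%.

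Most domains nevertheless held at least 1 such motif. A GATA motif was in the central window of 1 or more peaks in 246 of 268 domains (91.8%, 87.9 to 94.5%), and a composite in 96 (35.8%, 30.3 to 41.7%). Counted anywhere in a peak, all 268 domains had a GATA motif and 187 (69.8%) a composite. These shares grow with the number and length of the peaks. Only 4 domains had 3 or more windows with a composite, and in 2 domains every window had a GATA motif. The GFI1B domain was among 22 in which no window had one, although 4 of its 6 peaks held a GATA motif elsewhere, so the midpoint window misses motifs of long peaks.

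Domain peaks were longer than other peaks, with a median of 487 bp against 446 bp. Peaks over 1000 bp made up 17.0% of domain peaks and 9.16% of other peaks, a difference of 7.87 points (6.12 to 9.73; with groups as units 6.06 to 9.68). Of the 500 longest peaks in the list, 158 (31.6%) were in a domain, and these were 8.49% of the domain peaks. Peak ends set the gaps that the rule measures, so length is not fully separate from the rule.

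Domains lay both at promoters and away from them. Of domain peaks 37.8% were near a TSS, against 35.1% of other peaks, a difference of 2.67 points whose interval over peaks (0.285 to 5.10) was above 0 and whose interval with groups as units (-1.37 to 6.71) was not. When peaks under 1000 bp apart were merged first, the difference was -0.485 points. Introns held 33.5% of domain peaks and 37.2% of other peaks, and intergenic sequence 26.4 and 24.9%, both with group intervals that included 0. Counted by domain, 201 of 268 (75%) had at least 1 peak near a TSS, 14 had every peak near one, and 67 had none. No protein-coding gene body was overlapped by 88 domains (32.8%), 1 by 131 and 2 or more by 49.

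Domains were unevenly placed along the genome. Chromosome 1 had 41 domains, chromosome 6 had 25, and per 100 Mb chromosome 17 had the most, 22.8. These counts also depend on how many peaks a chromosome has. Domains held 21.8% of the peaks of chromosome 1, 21.0% of chromosome 6 and 19.9% of chromosome 17, against 16.9% of all peaks. Among chromosomes with peaks this share was highest on chromosome 16, at 29.3%, and lowest on chromosome X, at 7.25%. On chromosome 16, between 85 and 90 Mb, 6 domains, those of GSE1, CBFA2T3 and ZFPM1 among them, held 71 peaks, of which 1 had repeated central bases. Between 110 and 130 Mb of chromosome 1, 13 domains held 115 peaks, of which 56 had repeated central bases. Over all domains such peaks made up 12.3%, against 10.4% of other peaks (difference 1.92 points, with groups as units -0.993 to 4.84), and in 23 domains they were the majority. With such peaks left out before stitching, the same rule gave 209 domains.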

How the data were processed

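NB4 cells were profiled by CUT&Tag in 1 LDB1 library and 1 IgG library, and the LDB1 peak list was analysed. Reads were aligned to hg38 by the authors with Bowtie2 2.4.4, and peaks were called with MACS3 3.0, versions as in the submitters' processing notes. Use of the IgG library as a control, and removal of duplicates, are not given in the sources used here. The deposited columns used were the first base, last base and length (bp) of every peak, without score or summit, so the midpoint stood for the summit. Depth is unknown. No column lacked a mapping (0 unmapped).

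Peaks were stitched at gaps under 12.5 kb and annotated with GENCODE release 44. Motifs were searched on both strands in 200 bp at the midpoint. Central sequences of 31 bases were counted in hg38 to find repeats. Shares carry 95% Wilson intervals, differences Newcombe intervals and linearised intervals with stitched groups as units, ratios log-scale intervals. No p-values were computed. Domains were named when among the 10 with most peaks, the 5 with greatest summed length, or over a gene of the lists (at most 6 per list), plus LDB1, LMO2 and LYL1. Other domains were named after their values were seen. The members, gene lists and comparisons were chosen with earlier results of these data known. Counting was tested on simulated data. Alternatives were other gaps, sizes, windows, merged peaks and peaks left out. Tables were handled with pandas 2.3.3 and numpy 2.4.6, intervals with SciPy 1.17.1 and plots with matplotlib 3.10.9, under Python 3.11.15.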

Additional observations from a re-analysis of the deposited data

How the results depend on the processing

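The number of domains, 268, depended on the rule: 124 at a gap of 5000 bp, 406 at 25000 bp, 128 with peaks under 1000 bp apart merged, 118 with peaks within 2500 bp of a TSS left out, 448 at 4 or more peaks and 155 at 6 or more. The share of peaks in domains, 16.9%, was in turn 6.80%, 27.7%, 8.65% and 10.6% under the first 4 of these, and 14.8% without repeated peaks. Genes overlapping a domain, 249, numbered 90 at 5000 bp and 494 at 25000 bp. The GATA difference, -15.2 points, was -17.7 with merged peaks, -8.61 in windows of 100 bp, -11.9 over whole peaks and -12.3 with other peaks weighted to the GC content of domain peaks. The composite difference, -5.71 points, was -7.19 merged, -2.53 in 100 bp and -8.15 over whole peaks. Whole peaks and GC weighting were chosen after seeing the data. All 18 alternatives of both motif differences were below 0, and so were the intervals of the 16 that had one. The difference near a TSS, 2.67 points, turned to -0.485 with merged peaks and was 0.221 for protein-coding TSS. The cause was not tested. No paired analysis was possible because no group has more than 1 library. With 1 library, no peak heights and unknown depth, neither replicate spread nor peak strength could be assessed.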

Other observations

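Some genes were nearest to several domains, and those named here were chosen after their values were seen. A total of 19 genes were the nearest protein-coding gene of more than 1 domain, and together these were 41 of the 268 domains. GSE1 was nearest to 3 domains with 42 peaks. MYC, a growth regulator, was also nearest to 3, with 20 peaks in all, and these lay over the long noncoding RNA gene PVT1, at 152051, 210205 and 299324 bp from the MYC TSS. PIM1, a kinase gene, was nearest to 2 domains with 15 peaks, the closer one 4726 bp from its TSS and with no peak near a TSS. ID2, which encodes an inhibitor of helix-loop-helix factors, was nearest to 2 domains with 10 peaks, at 133431 and 350022 bp from its TSS. HES1, a Notch target gene, was nearest to 2 domains with 10 peaks, 1 over its TSS and 1 at 207089 bp. A domain of 5 peaks summing to 6186 bp lay over PDZK1IP1, the gene next to TAL1. It had no GATA motif in a central window, and 1 of its peaks held a composite elsewhere.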
